A study of Homo sapiens with 22 samples.

Results

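In HT1080 cells whose endogenous KDAC6 carries the H216A substitution, which inactivates catalytic domain 1, PPP2R2C and RTN4RL1 stood far above their wild-type level, and WNT5B and ACOT2 were at or next to 0. These 4 of the 60675 genes in the table were followed through all 22 libraries. They were chosen by their values, namely the difference between KDAC6H216A and wild-type cells. They are among the strongest changes of that line outside the cancer-testis genes, but EGR1 rose more than RTN4RL1. For these 4 genes, the difference between KDAC6H216A and wild-type cells is therefore a description here, with no test. Genes other than these were tested in it. The tests of the 4 genes cover the 4 other groups. Those against wild-type cells reuse the wild-type libraries that helped choose the genes and are not independent of the choice.

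HT1080 is a human fibrosarcoma line, and the RNA was depleted of rRNA before sequencing. Untreated wild-type cells (WT), KDAC6H216A, KDAC6H611A and KDAC8H143A had 4 libraries each. WT cells treated for 2 days with 1 µM Tubastatin A, an inhibitor of KDAC6, or with 5 µM PCI-34051, an inhibitor of KDAC8, had 3 libraries each. KDAC6H611A inactivates catalytic domain 2 of KDAC6 and KDAC8H143A the single domain of KDAC8, each by a changed histidine codon in the gene on the X chromosome. The mutant lines were made by genome editing. KDAC6H216A was a pool of several independently derived edited lines, whereas the number of clones in the other lines is not given in the sources used here, so line and mutation cannot be told apart in any mutant line.

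PPP2R2C encodes a B-type regulatory subunit of protein phosphatase 2A (PP2A), a serine/threonine phosphatase built from a scaffold, a catalytic and an exchangeable regulatory subunit, and it is known mainly from brain. RTN4RL1 encodes a membrane-anchored protein of the Nogo receptor family, whose members bind myelin and matrix ligands on neurons and signal through co-receptors. WNT5B is a secreted WNT ligand that signals mainly without β-catenin, through Frizzled and ROR receptors. ACOT2 is a thioesterase of the mitochondrial matrix that splits long-chain acyl-CoA into free fatty acid and CoA, and PPAR receptors are known to control its family.

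On the human genome GRCh38 with the GENCODE 44 annotation, PPP2R2C (ENSG00000074211) lies on chromosome 4 from 6320578 to 6563600 on the minus strand. RTN4RL1 (ENSG00000185924) lies on chromosome 17 from 1934677 to 2025334 on the minus strand. WNT5B (ENSG00000111186) lies on chromosome 12 from 1529891 to 1647212 and ACOT2 (ENSG00000119673) on chromosome 14 from 73567620 to 73575658, both on the plus strand. No 2 of the 4 genes share a chromosome.

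Promoter sequences are shown as background, since the genes were chosen for large rises or falls in the same line. They are from RefSeq on GRCh38.p14, run from 250 bases before to 50 after a listed start, and the most upstream entry of each matched gene is printed in the direction of transcription with every CG dinucleotide in capitals. The entries lie at chr4:6563750-6564049 on the minus strand, and at chr12:1616806-1617105 and chr14:73568809-73569108 on the plus strand. Those of WNT5B and ACOT2 lie inside the annotated genes, downstream of the gene starts at 1529891 and 73567620, so the 3 sequences are not alike in position. Which start these cells used was not tested.
PPP2R2C: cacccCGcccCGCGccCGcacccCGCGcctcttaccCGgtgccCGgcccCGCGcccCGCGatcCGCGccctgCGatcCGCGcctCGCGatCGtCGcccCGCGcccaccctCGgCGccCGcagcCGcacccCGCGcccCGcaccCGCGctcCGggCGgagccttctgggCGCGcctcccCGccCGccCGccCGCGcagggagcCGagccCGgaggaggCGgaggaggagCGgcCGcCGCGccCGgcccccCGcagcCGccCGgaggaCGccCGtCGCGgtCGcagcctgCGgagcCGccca
WNT5B: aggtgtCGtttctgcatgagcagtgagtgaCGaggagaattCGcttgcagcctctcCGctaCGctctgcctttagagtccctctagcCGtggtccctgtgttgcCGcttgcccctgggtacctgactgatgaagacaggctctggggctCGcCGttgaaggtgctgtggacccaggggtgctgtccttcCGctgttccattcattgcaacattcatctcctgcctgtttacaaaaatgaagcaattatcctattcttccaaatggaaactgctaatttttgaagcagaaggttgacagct
ACOT2: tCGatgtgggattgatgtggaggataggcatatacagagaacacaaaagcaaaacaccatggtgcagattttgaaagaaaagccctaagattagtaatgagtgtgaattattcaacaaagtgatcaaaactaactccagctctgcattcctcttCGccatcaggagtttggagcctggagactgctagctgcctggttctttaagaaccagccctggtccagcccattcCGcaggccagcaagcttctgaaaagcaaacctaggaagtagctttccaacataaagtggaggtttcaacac
The PPP2R2C sequence holds 59 CG dinucleotides, more than 99.9% of the 35116 promoters in the table, whose median is 14. The WNT5B and ACOT2 sequences hold 10 and 3. PPP2R2C has 5 entries in all, with 1 to 59 CG dinucleotides, WNT5B and ACOT2 have 2 each, with 7 and 10 and with 3 and 9, and RTN4RL1 was not matched. GC box letters (GGGCGG, searched on both strands, which can overlap CG) occur 7 times in the printed PPP2R2C sequence and in neither of the other printed sequences, and 45.0% of all promoters hold them. The TATA box letters TATAAA occur in none of the printed sequences and in 11.5% of all promoters, and the AP-1 letters TGANTCA in none and in 7.71%.

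Total expected counts ran from 5248960 to 12752476 per library in WT, KDAC6H216A and KDAC6H611A, from 11010779 to 17170493 in KDAC8H143A and from 24315844 to 29862658 after the inhibitors. Mitochondrial rRNA took under 1% of the counts in 12 libraries, namely KDAC6H216A replicate 1, KDAC6H611A replicate 4 and all of KDAC8H143A and the treated cells, and over 10% in the other 10. KDAC6H216A replicate 1, at 0.195%, is therefore shown apart. Of 10 fibroblast-like markers, 8 or 9 reached 1 CPM (counts relative to library size, scaled by the TMM method) in every group, with summed levels of 4206 to 10429 CPM. Of 5 neural markers, 2 reached 1 CPM in each group except KDAC8H143A, with 4, and their summed level was 8.24 to 9.71 CPM in WT, 11.0 to 17 CPM in KDAC6H216A and 8.17 to 16.5 CPM elsewhere. The part of these cell type markers, depth or rRNA share in the results was not tested. HDAC6, the gene of KDAC6, averaged 14.2 CPM ± 3.27 (SD, n = 4) in WT and 6.36 CPM ± 0.748 (SD, n = 4) in KDAC6H216A, a log2 fold change of -1.25 ± 0.18 (SE) with an adjusted p of 5.40e-03 by edgeR. This call was lost in 6 of 8 fits that left out a library, with adjusted p up to 0.0316, and with the replicate number as a block, with 0.0192 by edgeR. HDAC6 differed from WT by -0.10 ± 0.18 in KDAC6H611A and 0.17 ± 0.17 in KDAC8H143A (SE, log2 scale), with adjusted p of 0.747 and 0.391 by edgeR. Counts do not read the changed codon.

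PPP2R2C was close to silent in WT cells and stood above every WT library in all 3 mutant lines, of which KDAC6H216A served to choose it. WT libraries had 1.65, 1.12, 1.01 and 1.59 CPM, from 8 to 11 counts. KDAC6H216A had 18.9 CPM in replicate 1 and 24.5, 23.8 and 26.3 CPM in the other libraries. No KDAC6H216A library overlapped WT, and the mean of 23.4 CPM ± 3.18 (SD, n = 4) became 24.9 CPM ± 1.28 (SD, n = 3) without replicate 1. The described difference from WT was 4.06 on the log2 scale.

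KDAC6H611A, the other KDAC6 mutant, was also above WT. Its libraries had 15.8, 12.1, 15.8 and 17.2 CPM of PPP2R2C. The 4 KDAC8H143A libraries had 8.998, 5.22, 10.0 and 42.9 CPM. All 8 libraries lay above every WT library, but replicate 4 of KDAC8H143A was more than 4 times as high as any other library of its group, so that its mean of 16.8 CPM has an SD of 17.5 (n = 4). PPP2R2C was higher than WT by 3.56 ± 0.21 (SE, log2 scale) in KDAC6H611A, with an adjusted p of 4.10e-07 in edgeR's quasi-likelihood test over all genes. In KDAC8H143A it was higher by 3.71 ± 0.72 (SE, log2 scale), with an adjusted p of 6.44e-04 by edgeR, and by 2.61 without replicate 4. Replicate 4 of KDAC6H611A, the library of that line with little mitochondrial rRNA, did not carry the difference, which was 3.49 without it.

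The inhibitors left PPP2R2C near its WT level. Tubastatin A gave 2.07, 2.20 and 2.49 CPM and PCI-34051 1.76, 1.59 and 1.55 CPM. Every Tubastatin A library lay above every WT and PCI-34051 library, yet the difference from WT, 0.67 ± 0.28 (SE, log2 scale), missed the threshold with an adjusted p of 0.0397 by edgeR. For PCI-34051 the difference was 0.22 ± 0.30 (SE, log2 scale), with an adjusted p of 0.547 by edgeR. The group means fell in the order KDAC6H216A, KDAC8H143A, KDAC6H611A, Tubastatin A, PCI-34051, WT. The ranges of neighbouring groups in that order overlapped except between KDAC6H611A and Tubastatin A and between Tubastatin A and PCI-34051.

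RTN4RL1 was high in KDAC6H216A alone among the 6 groups. WT libraries had 1.45, 1.62, 1.26 and 0.434 CPM, from 3 to 13 counts. KDAC6H216A had 6.37 CPM in replicate 1 and 5.75, 6.75 and 8.02 CPM in the others. The lowest KDAC6H216A library thus lay above the highest library of any other group, and the mean was 6.72 CPM ± 0.960 (SD, n = 4) with replicate 1 and 6.84 CPM ± 1.14 (SD, n = 3) without it.

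KDAC6H611A went the other way, since it had 2, 0, 1 and 3 counts of RTN4RL1, or 0.263, 0, 0.0905 and 0.349 CPM. All 4 libraries lay below the lowest WT library in CPM. That library, WT replicate 4, and KDAC6H611A replicate 4 both had 3 counts, so these 2 are apart only by scaling. The mean level was at least 2.37-fold lower than in WT when 3 counts per library are taken as the limit. The filter on low counts kept this difference out of the edgeR fit. Without the filter the adjusted p was 2.13e-03 by edgeR, and DESeq2 gave 0.0143, on the other side of the threshold of 0.01.

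In the other groups no difference of RTN4RL1 from WT passed the threshold, though PCI-34051 averaged 0.547 CPM against 1.19 CPM in WT. KDAC8H143A had 1.58, 1.499, 1.35 and 1.22 CPM, and its difference from WT was 0.30 ± 0.36 (SE, log2 scale), with an adjusted p of 0.471 by edgeR. Tubastatin A had 0.893, 1.12 and 0.590 CPM and PCI-34051 0.673, 0.477 and 0.492 CPM. All PCI-34051 libraries lay within the WT range, which its lowest library, replicate 4, extends downward. The difference of PCI-34051 from WT was -1.21 ± 0.41 (SE, log2 scale) and missed the threshold with an adjusted p of 0.0168 by edgeR, but passed with 4.93e-03 when WT replicate 4 was left out. Tubastatin A differed from WT by -0.56 ± 0.38 (SE, log2 scale), with an adjusted p of 0.203 by edgeR. In order of the means, KDAC6H216A stood apart at the top and KDAC6H611A at the bottom, and the ranges of KDAC8H143A, WT, Tubastatin A and PCI-34051 between them overlapped from neighbour to neighbour.

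**Figure D1:**
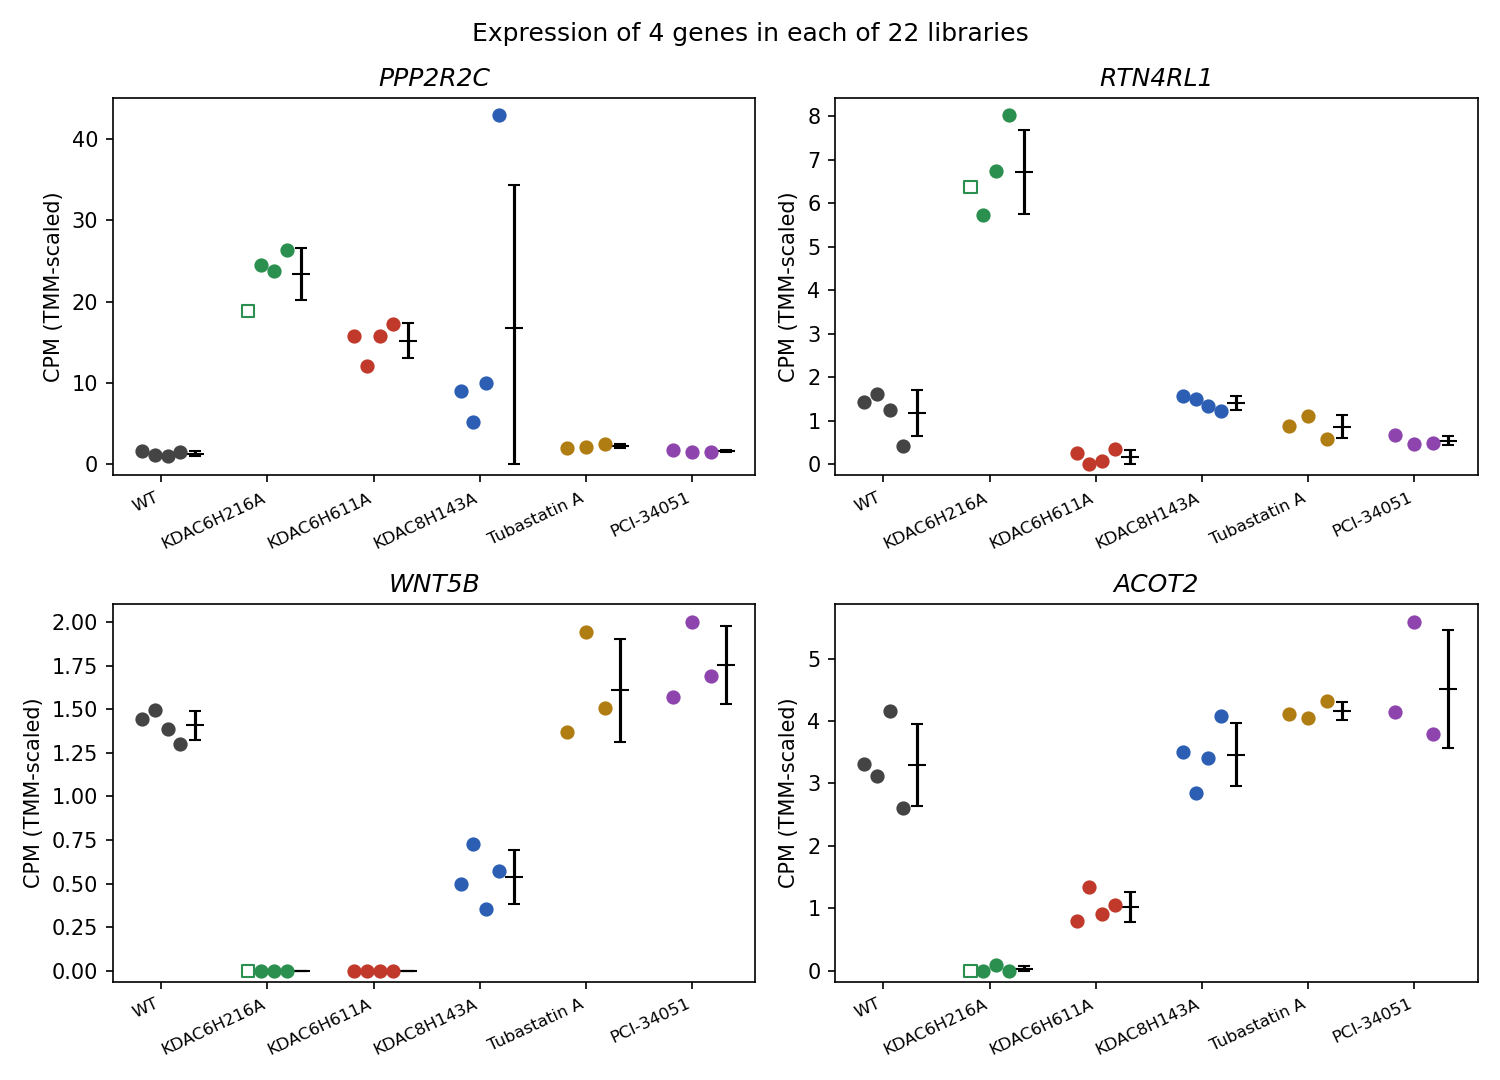
Level of PPP2R2C, RTN4RL1, WNT5B and ACOT2 in CPM (vertical axes, each panel with its own linear scale) in every library of the 6 groups, with the mean and SD beside the points (the SD bar is cut at 0) and KDAC6H216A replicate 1 as an open square. PPP2R2C is at 18.9 to 26.3 CPM in KDAC6H216A against 1.01 to 1.65 CPM in WT, with 1 KDAC8H143A library at 42.9 CPM, and WNT5B is at 0 in all 8 KDAC6 mutant libraries.

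WNT5B gave no count in either KDAC6 mutant. WT libraries had 7, 12, 11 and 9 counts, or 1.45, 1.495, 1.39 and 1.301 CPM. All 4 KDAC6H216A libraries, replicate 1 included, and all 4 KDAC6H611A libraries had 0 counts, and 3 counts would have been 0.289 to 0.375 CPM in KDAC6H216A and 0.271 to 0.503 CPM in KDAC6H611A. The level was at least 3.75-fold lower than WT in KDAC6H216A, as a description, and at least 2.80-fold lower in KDAC6H611A. The filter kept WNT5B out of the fit of KDAC6H611A, and without it the adjusted p was 2.84e-08 by edgeR, and 9.21e-06 by DESeq2.

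KDAC8H143A held WNT5B at an intermediate level. Its libraries had 6, 15, 5 and 7 counts, or 0.4999, 0.725, 0.355 and 0.571 CPM, all below every WT library and above both KDAC6 mutants. The difference from WT was -1.29 ± 0.33 (SE, log2 scale), with an adjusted p of 4.16e-03 by edgeR. This call was not firm: it was lost by DESeq2, with an adjusted p of 0.0204, and when any 1 of the 4 WT libraries or KDAC8H143A replicate 1 or 3 was left out, with adjusted p from 0.0104 to 0.0173 by edgeR. The treated cells were near WT, at 1.37, 1.94 and 1.51 CPM with Tubastatin A and 1.57, 2.00 and 1.69 CPM with PCI-34051. Their differences from WT were 0.08 ± 0.28 (SE, log2 scale) and 0.22 ± 0.28 (SE, log2 scale), with adjusted p of 0.817 and 0.507 by edgeR. The order was PCI-34051, Tubastatin A, WT, KDAC8H143A and the KDAC6 mutants, with overlap among the first 3 groups only.

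ACOT2 fell almost to 0 in KDAC6H216A and to an intermediate level in KDAC6H611A. WT libraries had 3.30, 3.12, 4.16 and 2.60 CPM, from 16 to 33 counts. The KDAC6H216A libraries had 0, 0, 1 and 0 counts, which is at least 8.79-fold lower than WT as a description, and at least 10.7-fold lower without replicate 1. KDAC6H611A had 0.790, 1.34, 0.905 and 1.05 CPM, from 6 to 10 counts. These 4 libraries lay below every WT library and above every KDAC6H216A library.

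Against WT, ACOT2 in KDAC6H611A was lower, with a log2 fold change of -1.68 ± 0.31 (SE) and an adjusted p of 1.81e-03 by edgeR. The call was lost when WT replicate 3 was left out, with an adjusted p of 0.0112 by edgeR, and the value was -1.70 without KDAC6H611A replicate 4. KDAC8H143A and the treated cells were near WT. KDAC8H143A had 3.50, 2.85, 3.41 and 4.08 CPM, Tubastatin A 4.12, 4.05 and 4.33 CPM, and PCI-34051 4.15, 5.59 and 3.80 CPM. Their differences from WT were 0.11 ± 0.23, 0.22 ± 0.19 and 0.35 ± 0.21 (SE, log2 scale), with adjusted p of 0.686, 0.321 and 0.163 by edgeR. The order of means was PCI-34051, Tubastatin A, KDAC8H143A, WT, KDAC6H611A, KDAC6H216A, and the first 4 overlapped from neighbour to neighbour.

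The close paralog ACOT1 lies beside ACOT2, on chromosome 14 from 73537143 to 73543796, and can share its reads. ACOT1 was given at most 1.20 expected counts in any library and 0.522% of the counts of both genes together, and the ACOT2 value was not whole in 5 of 22 libraries. The split of reads between these 2 genes is thus uncertain, but their sum was near 0 in KDAC6H216A too. RTN4RL1 and WNT5B had whole counts in all 22 libraries, and PPP2R2C in all but 5.

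Over the 6 comparisons other than KDAC6H216A against WT, 21 of the 24 pairs of gene and comparison passed the filter on low counts. The threshold was an adjusted p of 0.01. In KDAC6H611A against WT 12.3% of all genes passed, and so did PPP2R2C and ACOT2. Both entered that fit through the group in which they were high, and the filter removed the other 2 genes, so nothing is read from their number. In KDAC8H143A against WT 1 of 4 was higher and 1 lower, beside 31.6% and 26.9% of all genes (58.5% in all), so that a call in that comparison is common. None of the 4 passed with Tubastatin A or PCI-34051 against WT, where 57.9% and 51.1% of all genes passed by edgeR, 29.3% and 25.5% as higher and 28.6% and 25.6% as lower. At an unadjusted p of 0.05, 2 of the 8 tests of the inhibitors against WT passed by edgeR, and DESeq2 at an adjusted p of 0.01 called 0. The comparisons with WT share the same 4 WT libraries, which also helped choose the genes, so these tests are not independent of the choice. Between WT and KDAC8H143A or the treated cells, neither the mitochondrial rRNA share nor depth can be told apart from the group. The mitochondrial rRNA share of WT, at 20.8 to 23.9%, did not overlap that of KDAC6H216A either, at 0.195 to 15.1%.

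Direct comparison of KDAC6H611A with KDAC8H143A uses no WT library, and 45.2% of all genes passed in it, 20.9% as higher and 24.3% as lower in KDAC6H611A. ACOT2 was lower in KDAC6H611A by a log2 fold change of -1.80 ± 0.31 (SE), with an adjusted p of 4.04e-04 by edgeR. ACOT2 entered this fit through the group in which it was high, with 42 to 59 counts in KDAC8H143A beside 6 to 10 in KDAC6H611A. RTN4RL1 was at least 2.81-fold lower in KDAC6H611A, with an adjusted p of 5.94e-04 by edgeR. It entered this fit through the 15 to 31 counts of KDAC8H143A, beside 0 to 3 in KDAC6H611A, and the adjusted p was 6.73e-05 by edgeR without the filter and 4.25e-04 by DESeq2. PPP2R2C differed by -0.16 ± 0.51 (SE, log2 scale), with an adjusted p of 0.803 by edgeR. Without KDAC8H143A replicate 4 the sign turned and PPP2R2C was higher in KDAC6H611A by 0.94, with an adjusted p of 5.15e-03 by edgeR, so 1 library decides that comparison. WNT5B, at 0 counts in KDAC6H611A, was at least 1.07-fold lower and was removed by the filter. Without the filter its adjusted p was 2.59e-04 by edgeR, and DESeq2 gave 2.12e-03.

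The 2 inhibitors were not distinguished by any of the 4 genes, where 5.65% of all genes passed by edgeR, 3.45% as higher with Tubastatin A and 2.2% as lower. Tubastatin A minus PCI-34051 was 0.45 ± 0.21 for PPP2R2C, 0.65 ± 0.38 for RTN4RL1, -0.14 ± 0.24 for WNT5B and -0.14 ± 0.16 for ACOT2 (SE, log2 scale). The adjusted p by edgeR were 0.178, 0.281, 0.744 and 0.631, and 1 of the 4 had an unadjusted p under 0.05, while DESeq2 called 0 at an adjusted p of 0.01. The compounds were given at different doses, so the values stand side by side.

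**Figure D2:**
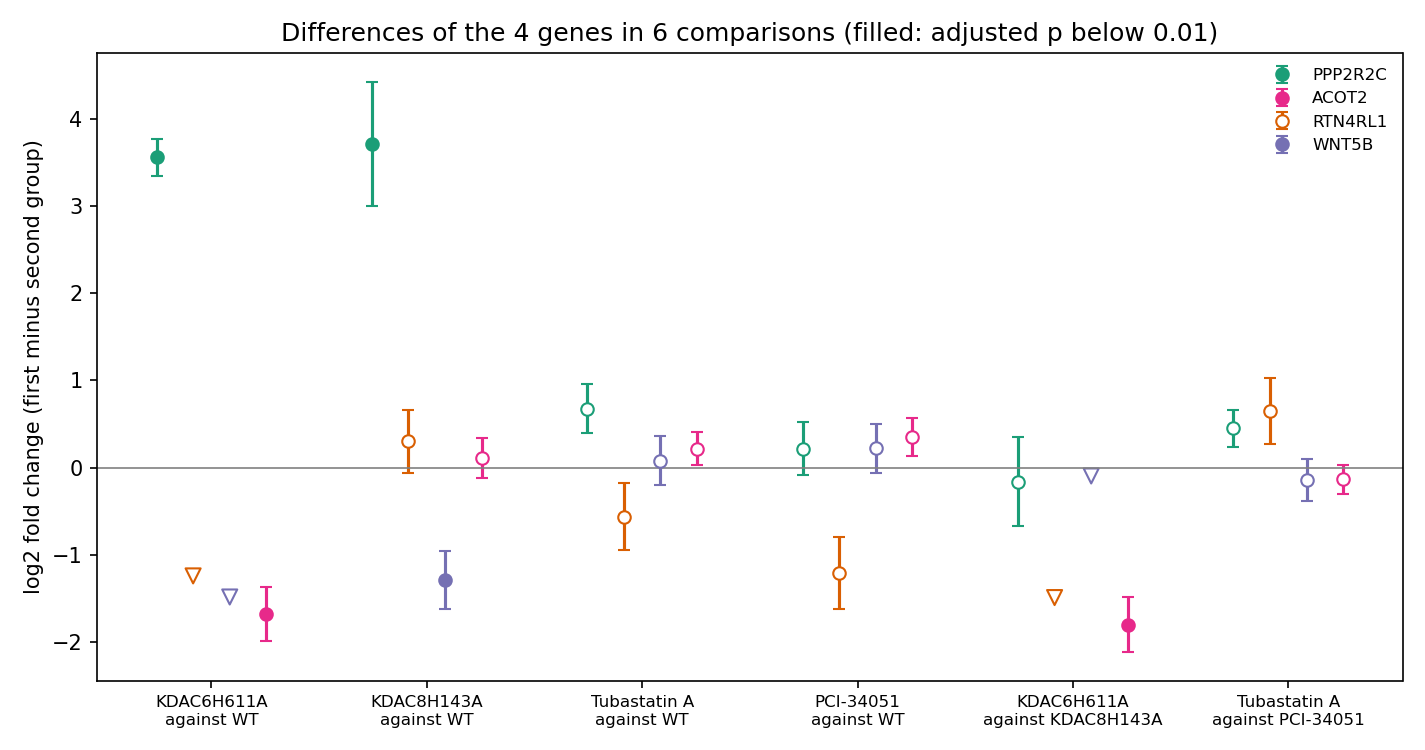
Log2 fold change (vertical axis) of the 4 genes in the 6 comparisons other than KDAC6H216A against WT, with SE bars, filled where the adjusted p was under 0.01. Those against WT share the WT libraries that helped choose the genes. Open triangles mark lower bounds of a fall where the lower group had at most 3 counts per library, taken as 3 counts. These bounds leave out the spread of the higher group and change with scaling and with the libraries kept. PPP2R2C is at 3.56 and 3.71 in KDAC6H611A and KDAC8H143A, and no gene passed under either inhibitor.

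In the contrast that chose the genes, 121 of 14500 genes tested passed the threshold (0.834%), 31 of them higher (0.214%) and 90 lower (0.621%), and nothing is read from these shares. Without replicate 1, 26.0% passed, 12.2% higher and 13.8% lower. Among the rises, the genes next in size around the members were EGR1 at 2.83, RTN4RL1 at 2.403, SLIT2 at 2.38 and COCH at 2.28 on the log2 scale. Among the falls, the cancer-testis gene MAGEC2 stood before WNT5B and ACOT2 and CDR1-AS after them.

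None of the 5 paralogs tested in KDAC6H216A against WT, namely PPP2R2A, PPP2R2D, RTN4R, RTN4RL2 and WNT5A, passed the threshold, with adjusted p from 0.487 to 0.802 by edgeR. Only 0.834% of all genes passed there, so nothing is read from this count. At an unadjusted p under 0.05 the count was 0 by edgeR, and DESeq2 called 0 at an adjusted p of 0.01. No paralog of ACOT2 had the counts to be tested. PPP2R2A, the widely expressed subunit, had 7.72 CPM per kb of exon in WT and 8.83 in KDAC6H216A, against 0.143 and 2.50 CPM per kb for PPP2R2C. PPP2R2D had 4.08 and 4.01 CPM per kb. PPP2R2C thus remained the lesser subunit per length in KDAC6H216A. RTN4RL2 had 3.39 and 2.96 CPM per kb in the same groups while RTN4RL1 went from 0.329 to 1.86 CPM per kb, and WNT5A had 5.87 and 5.54 where WNT5B went from 0.332 to 0.

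In the other groups some paralogs moved in the direction of the member and some did not. WNT5A was higher than WT by 1.501 with Tubastatin A and by 1.86 with PCI-34051 on the log2 scale, with adjusted p of 2.85e-14 and 4.92e-14 by edgeR, and lower by a log2 fold change of -1.38 in KDAC8H143A, with an adjusted p of 3.74e-05 by edgeR, where WNT5B was lower too. In the same line PPP2R2D was higher by 1.24, as PPP2R2C was, and PPP2R2A had a log2 fold change of -0.90, with adjusted p of 5.17e-05 and 6.97e-05 by edgeR. RTN4RL2 was higher in KDAC8H143A by 2.87 on the log2 scale, at 58.2 CPM ± 7.29 (SD, n = 4) against 8.17 CPM ± 0.837 (SD, n = 4) in WT, with an adjusted p of 4.46e-08 by edgeR. None of the tested paralogs passed in KDAC6H611A against WT, beside 12.3% of all genes, and nothing is read from so few genes. PPP2R2A came nearest, with a log2 fold change of -0.33 and an adjusted p of 0.0184 by edgeR. It was the only 1 of the 5 tested with an unadjusted p under 0.05, and DESeq2 called 0 of them at an adjusted p of 0.01. PPP2R2B, at 0 to 0.233 CPM on average in the untreated groups, reached 1.74 CPM with Tubastatin A and 0.943 CPM with PCI-34051. ACOT4 and ACOT6 had at most 2 counts in any library.

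**Figure D3:**
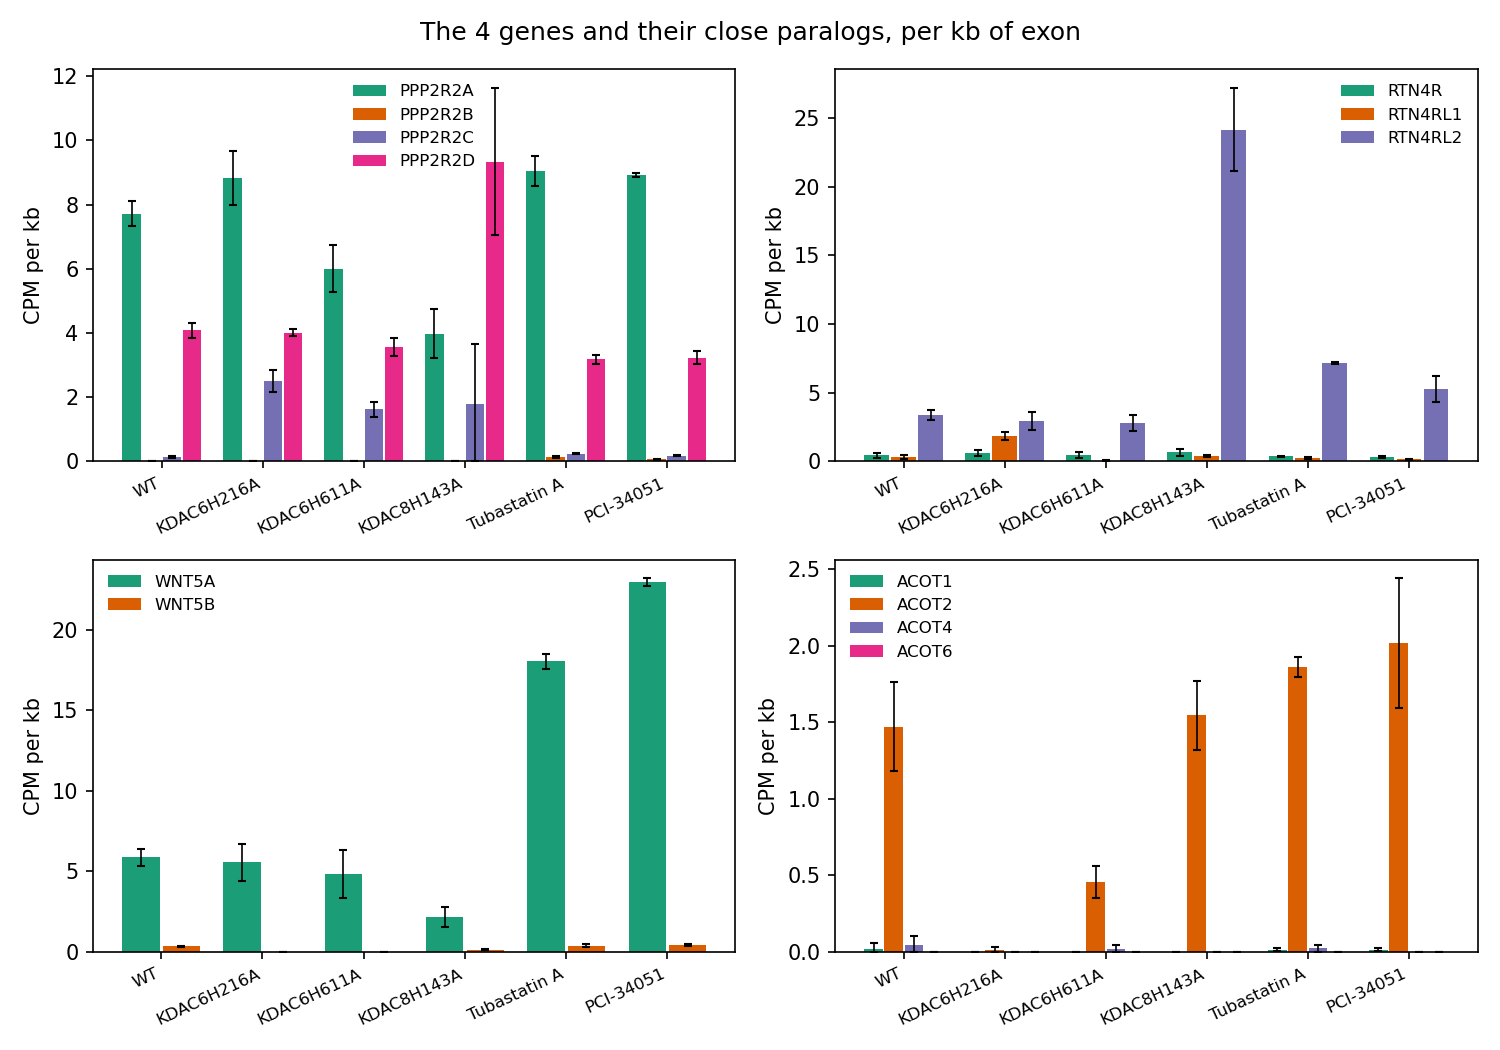
Mean CPM per kb of exon (vertical axes, linear, bars from 0, SD bars cut at 0) of the 4 genes and their paralogs in the 6 groups, with n = 4 for untreated groups and n = 3 for treated ones. PPP2R2C stays below PPP2R2A in every group, and ACOT2 is the thioesterase of its cluster with the reads, at 1.47 CPM per kb in WT.

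Pathway lists around the 4 genes held 138 other genes, of which 103 could be tested in KDAC6H216A against WT. Of these, 1 was higher and 1 lower, and without replicate 1, 21 were higher and 6 lower, or 26.2% beside 26.0% of all genes. None of 4 PP2A scaffold and catalytic subunits, 13 other regulatory subunits and 10 modulators passed by edgeR with all libraries, where their medians were 0.12, 0.10 and 0.13 on the log2 scale beside 0.00 over all genes. None of 6 other thioesterases, 13 genes of mitochondrial fatty acid oxidation and 4 PPAR regulators passed by edgeR, with medians of 0.02, 0.03 and 0.04, where 0.834% of all genes did. Without replicate 1, when 26.0% of all genes passed, 1 of the 4 scaffold and catalytic subunits, 1 of the 13 regulatory subunits, 4 of the 10 modulators, 2 of the 13 oxidation genes and 1 of the 4 PPAR regulators were called, and 0 of the 6 thioesterases. Over these 6 lists with all libraries, 6 genes had an unadjusted p under 0.05, and DESeq2 called 0 at an adjusted p of 0.01.

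The list genes that passed in KDAC6H216A were NGFR, a co-receptor of the Nogo receptors, and FZD3, a WNT receptor. Each entered the fit through the group in which it was high, KDAC6H216A for NGFR and WT for FZD3. NGFR ranked 6 among the rises of the contrast that chose the 4 genes, so neither call is independent support for them. NGFR had 4 to 6 counts in WT, at 0.737 CPM ± 0.165 (SD, n = 4), and 29 to 40 counts in KDAC6H216A, at 3.81 CPM ± 0.158 (SD, n = 4). All KDAC6H216A libraries were above the 18 others, and the library set apart, at 3.62 CPM, was close to its group. The call of NGFR was lost in 7 of 8 fits that left out a library, with adjusted p from 0.0103 to 0.0160 by edgeR, and with the replicate number as a block, with 0.0135 by edgeR. The call of FZD3 was lost without WT replicate 3, with an adjusted p of 0.0103 by edgeR. FZD3 had 3.92, 3.36, 4.41 and 4.05 CPM in WT and 0.375, 0.205, 0.289 and 0.677 CPM in KDAC6H216A. In KDAC6H611A it had 21.5, 14.6, 24.2 and 15.6 CPM, so the KDAC6 mutants lay on opposite sides of WT without overlap. FZD3 was higher than WT by 2.30 ± 0.19 in KDAC6H611A, by 1.11 ± 0.14 with Tubastatin A and by 0.86 ± 0.16 with PCI-34051 (SE, log2 scale), with adjusted p of 6.16e-06, 1.54e-06 and 1.49e-04 by edgeR.

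**Figure D4:**
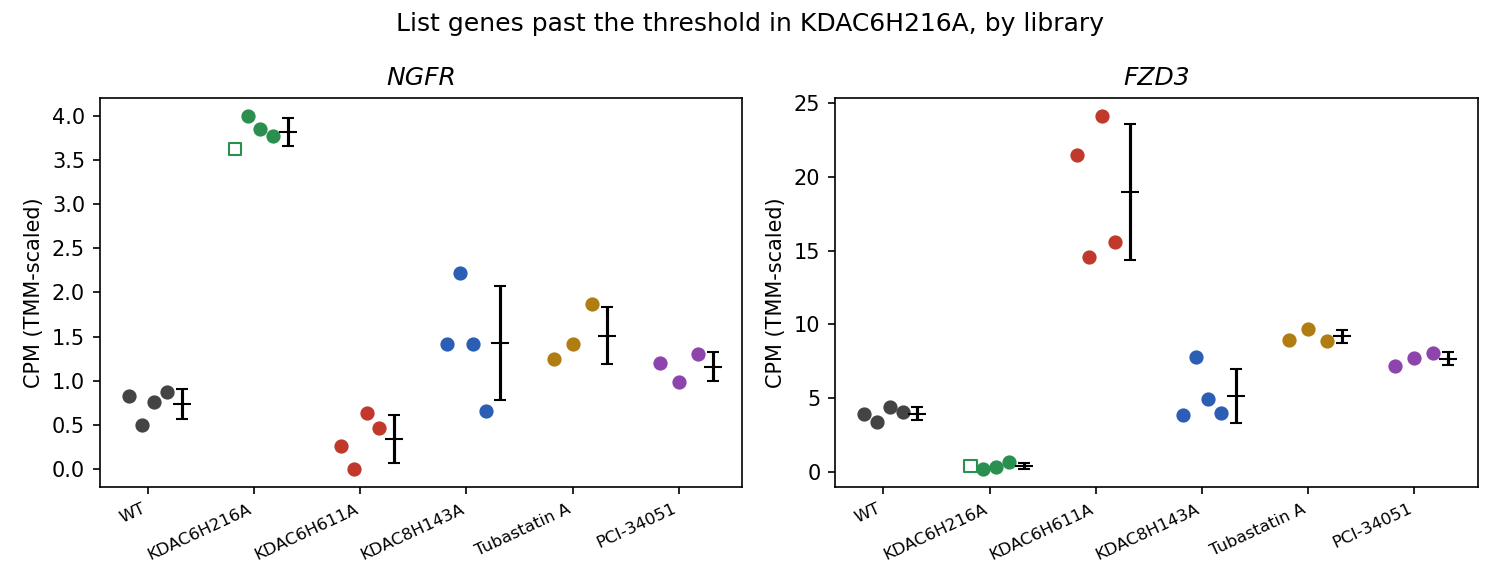
Level of NGFR and FZD3 in CPM (vertical axes, linear) in every library of the 6 groups, with the mean and SD beside the points and KDAC6H216A replicate 1 as an open square. NGFR is at 3.62 to 4.00 CPM in KDAC6H216A against at most 2.22 CPM elsewhere, and FZD3 is under 1 CPM in KDAC6H216A and at 14.6 to 24.2 CPM in KDAC6H611A.

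In KDAC6H611A against WT, 17 of 102 tested list genes passed, 8 higher and 9 lower, or 16.7% beside 12.3% of all genes, with a median of -0.05 on the log2 scale beside 0.03 over all genes. Among the WNT receptors 3 of 13 rose: FZD3, the kinase-like co-receptor PTK7, by 1.07 on the log2 scale, and the co-receptor LRP5, by 0.70. Of 12 genes of WNT transduction and planar polarity, VANGL2 rose by 1.65 and CELSR2 by 0.59, and PRICKLE1 fell, with a log2 fold change of -1.38. These have adjusted p between 6.16e-06 and 8.58e-04 by edgeR. Among 5 tested Nogo receptors and co-receptors, PTPRS rose by 1.41 and TNFRSF19 fell, with a log2 fold change of -2.39, where the adjusted p were 1.54e-05 and 7.55e-05 by edgeR. Around ACOT2, the thioesterase ACOT8 rose by 0.60, the oxidation enzyme ACAA2 had a log2 fold change of -0.71 and the receptor PPARD -0.65, with adjusted p of 5.60e-03, 7.00e-03 and 2.51e-03 by edgeR. These calls were lost in 6, 5 and 1 of 8 fits that left out a library, with adjusted p up to 0.0276, 0.0326 and 0.0135 by edgeR.

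In KDAC8H143A against WT 23 list genes were higher and 31 lower of 104, or 51.9% beside 58.5% of all genes. With Tubastatin A 53 were higher and 16 lower of 106, or 65.1% beside 57.9%, and with PCI-34051 42 were higher and 15 lower of 104, or 54.8% beside 51.1%. The median over the list genes was 0.25 with Tubastatin A and 0.13 with PCI-34051 on the log2 scale, beside values within 0.01 of 0 over all genes tested. CPT1A, which brings acyl groups to the mitochondrion, rose by 2.72 with Tubastatin A and 2.70 with PCI-34051, and ROR1, a receptor of WNT5 ligands, by 1.95 and 1.94, where the adjusted p were from 1.07e-15 to 2.53e-10 by edgeR. The levels of ACOT2 and WNT5B in the same libraries were near WT, as given above.

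Genes next to the 4 on the chromosome were looked at in the same comparisons. Of the 40 nearest tested genes, 5 on each side, none was higher and 1 was lower in KDAC6H216A against WT, beside 0.214% and 0.621% of all genes. That gene, WDR81 near RTN4RL1, had a log2 fold change of -0.57, and its call was lost in 7 of 8 fits that left out a library, with adjusted p up to 0.0180 by edgeR. No neighbour was higher at an unadjusted p under 0.05 by edgeR or at an adjusted p of 0.01 by DESeq2. The nearest neighbours WFS1 and MAN2B2 of PPP2R2C had 0.01 and 0.05, RPA1 and DPH1 of RTN4RL1 0.10 and -0.05, ERC1 and FBXL14 of WNT5B -0.02 and 0.20, and NUMB and DNAL1 of ACOT2 -0.28 and 0.24 on the log2 scale. The widest value was that of B4GALNT3, 1070 kb from WNT5B, with -2.34, in the direction of WNT5B, and an adjusted p of 0.0102 by edgeR. In KDAC6H611A against WT 2 of 40 were higher, where 6.08% of all genes were, and none was lower by edgeR, beside 6.24%. MSX1, among the neighbours of PPP2R2C, which also rose, was higher by 1.29. PTGR2, among those of ACOT2, which fell, was higher by 1.04. MSX1 ranked 4 by distance on its side of PPP2R2C, farther off than B4GALNT3 is from WNT5B. The tested genes between MSX1 and PPP2R2C, namely WFS1, CRMP1 and EVC, had -0.65, -0.48 and -0.45 on the log2 scale. The call of PTGR2 was lost in 4 of 8 fits that left out a library, with adjusted p up to 0.0210 by edgeR. Among those 40, 3 genes were lower at an unadjusted p under 0.05, and DESeq2 called 2 of them lower at an adjusted p of 0.01.

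**Figure D5:**
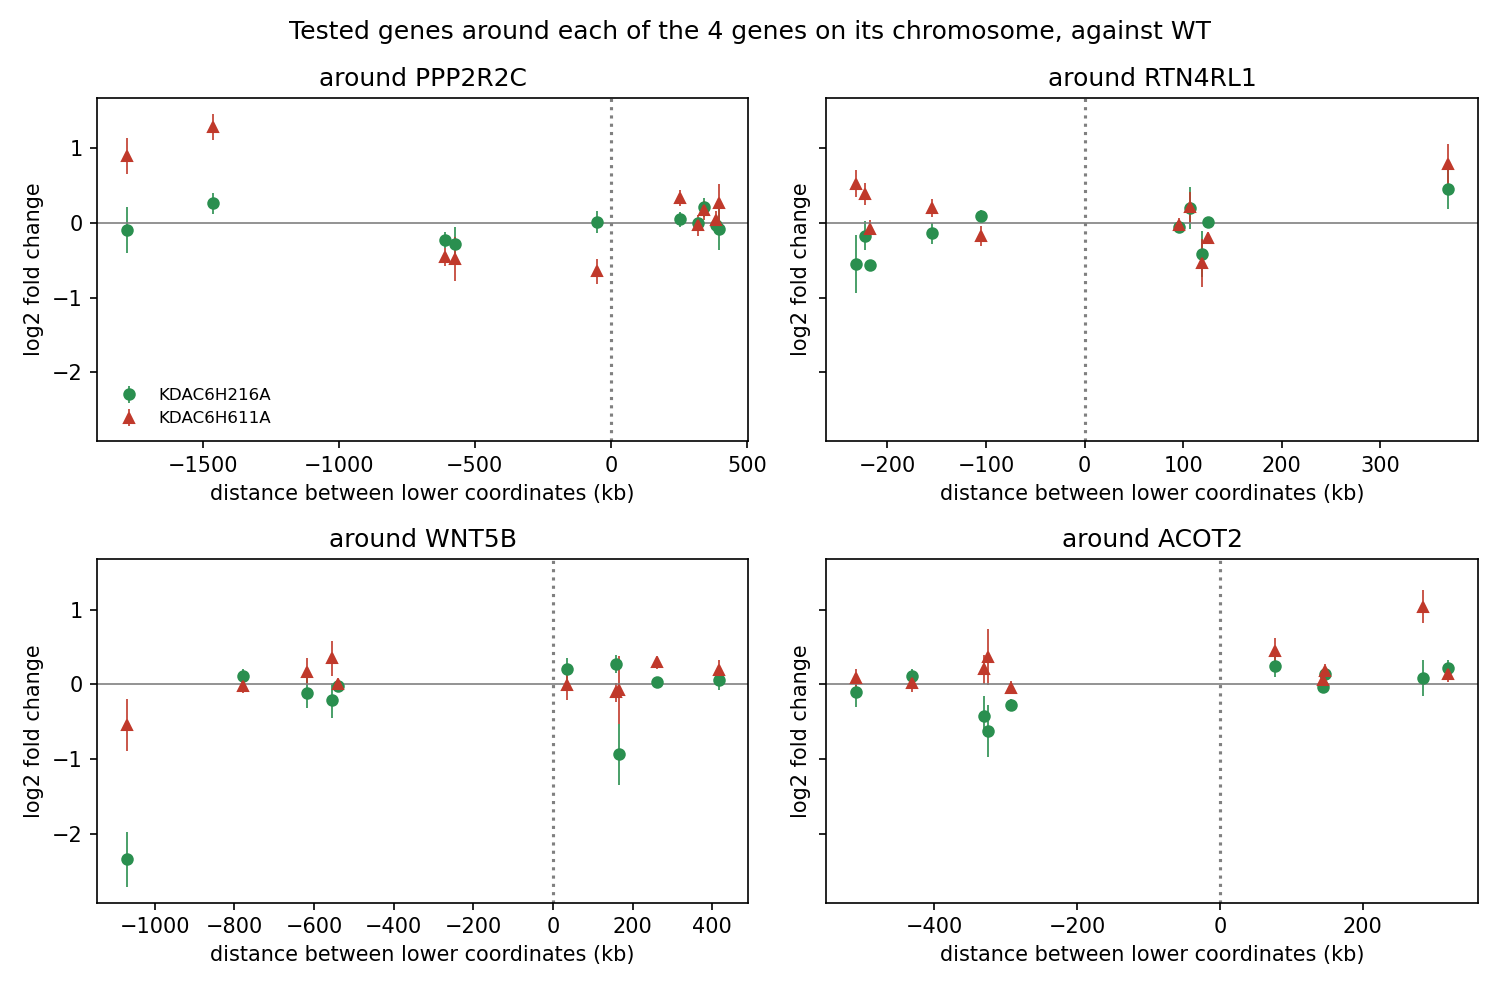
Log2 fold change against WT with SE (vertical axes, shared) of the 5 tested genes on each side of PPP2R2C, RTN4RL1, WNT5B and ACOT2, by the distance between the lower coordinates of the genes in kb, with circles for KDAC6H216A and triangles for KDAC6H611A. Most points lie near 0, and the lowest is B4GALNT3 in KDAC6H216A at -2.34, 1070 kb from WNT5B.

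The genes whose levels ran most like the 4 were found by Pearson's r of log2(CPM + 0.5) over the 22 libraries among 17789 genes, as a description, since libraries share depth and group. For ACOT2 the 2 most alike were GLUL, the glutamine synthetase (r = 0.973), and the lncRNA RP11-680F8.1 (r = 0.957). GLUL averaged 14.3 CPM in WT, with KDAC6H216A at 1.19, KDAC6H611A at 6.14 and KDAC8H143A at 16.7 CPM, while Tubastatin A gave 22.7 and PCI-34051 20.4 CPM. It thus kept the order of ACOT2 among the untreated groups, with KDAC6H611A between WT and KDAC6H216A.

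For WNT5B the most alike were FEZ1 (r = 0.930), NRSN2 (r = 0.919) and CDR1-AS (r = 0.917). FEZ1, an adaptor of axonal transport, had 3.75 CPM in WT, 0.951 and 0.883 in KDAC6H216A and KDAC6H611A, 1.77 in KDAC8H143A and 6.58 and 4.08 with Tubastatin A and PCI-34051. For RTN4RL1 they were HMGB3 (r = 0.887), FADS2 (r = 0.867) and JADE1 (r = 0.862). FADS2, a fatty acid desaturase, had 62.5 CPM in WT, 111 in KDAC6H216A and 20.9 in KDAC6H611A. For PPP2R2C they were LRP8 (r = 0.861), CENPV (r = 0.837) and QPCTL (r = 0.833), whose levels spread far less: LRP8 had 79.0 CPM in WT and 103.5 in KDAC6H216A. Without KDAC6H216A replicate 1, 3 of the 3 genes remained the most alike for WNT5B, these 2 for ACOT2 and 1 each for RTN4RL1 and PPP2R2C.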

How the data were processed

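The authors trimmed paired reads of rRNA-depleted RNA with Trimmomatic 0.39, aligned them to GRCh38 with Bowtie2 2.4.5 and counted them with RSEM 1.3.3, and the submitters' processing notes also name DESeq2 1.38.2. The annotation release is not given in the sources used here. The deposited values are RSEM expected counts per gene, not scaled for depth or length, in 1 column per library, and 0 columns of values were left unused. The methods call the libraries biological replicates.

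Expected counts were rounded to whole numbers and each comparison was fitted on its own groups with edgeR 4.0.16 in R 4.3.3 (TMM, filterByExpr by group, glmQLFit and glmQLFTest), with Benjamini-Hochberg adjustment over all genes tested and a threshold of 0.01. The SE is the log2 fold change over the square root of F. CPM use TMM factors over all 22 libraries. A group with at most 3 counts per library was given a lower bound. It is the mean of the higher group over the largest CPM that 3 counts make in the lower. The bound allows for counting error in the lower group only and leaves out the spread of the higher group. Positions and exon lengths came from GENCODE 44, to which 56558 of 60675 genes were matched by identifier.

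The 4 genes and the 13 lists were chosen with earlier results of these data known. The other genes named are up to 3 of each list past the threshold with the largest change, the paralogs, the nearest tested neighbours, the 3 genes most alike (2 for ACOT2, since 1 is not reported here) and HDAC6. MSX1, PTGR2, WDR81 and B4GALNT3, and the genes ranked beside the members, were named after their values were seen. Each result was recomputed by DESeq2 1.42.0 (own size factors), with upper quartile or total count scaling, no filter, an adjusted p of 0.05, all 6 groups in one fit, the replicate block, a GC and length correction (mgcv 1.9.3), both together, and each library left out. The model code was tested on simulated data in which 200 genes were changed. Libraries of a group all differed by more than sampling noise. Summaries used python 3.11.15, numpy 2.4.6, pandas 2.3.3 and matplotlib 3.10.9.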

Additional observations from a re-analysis of the deposited data

Results flagged for a closer look

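Within groups of 4 libraries, Dixon's test of the highest or lowest value was run on 24 groups of values, and chance flags about 1 in 20. It marked PPP2R2C in KDAC8H143A replicate 4, at 42.9 CPM against 5.22 to 10.0 CPM in the other 3 libraries. It marked ACOT2 in KDAC6H216A replicate 3, whose 0.0964 CPM is a single count beside 0 in the other libraries. It marked the mitochondrial rRNA share of KDAC6H216A replicate 1, at 0.195% against 13.1 to 15.1% in the others of that line.

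Effects differed between groups for several genes. RTN4RL1 was at least 2.81-fold lower in KDAC6H611A than in KDAC8H143A, with an adjusted p of 5.94e-04 by edgeR. It entered that fit through the counts of KDAC8H143A, and the call was lost with the replicate block and GC correction together. ACOT2 differed between the same lines by a log2 fold change of -1.80, with an adjusted p of 4.04e-04 by edgeR, and also entered the fit through the counts of KDAC8H143A.

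Other genes lay outside the WT range on opposite sides in 2 groups, in every library, and these differences were not tested. RTN4RL1 averaged 6.72 CPM in KDAC6H216A and 0.176 CPM in KDAC6H611A, with WT at 1.19 CPM. Replicate 4 of WT and replicate 4 of KDAC6H611A both had 3 counts of it and are apart only by scaling. FZD3 averaged 0.387 CPM in KDAC6H216A and 18.9 CPM in KDAC6H611A, 9.17 CPM with Tubastatin A and 7.65 CPM with PCI-34051, with WT at 3.94 CPM. WNT5B averaged 0 CPM in KDAC6H216A and in KDAC6H611A and 0.538 CPM in KDAC8H143A, against 1.75 CPM with PCI-34051, whose distance from WT at 1.41 CPM missed the threshold.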

How the results depend on the processing

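All values here are log2 fold changes unless named otherwise, the threshold is an adjusted p of 0.01, and the cause of a change was not tested. Scaling by total count shifted the median of all genes by over 0.1 in 5 comparisons. It moved the lower bounds to 2.89-fold (WNT5B) and 6.78-fold (ACOT2) in KDAC6H216A, to 3.10-fold for WNT5B in KDAC6H611A against WT, where upper quartile scaling gave 2.47-fold, and to 3.92-fold (RTN4RL1) and 1.49-fold (WNT5B) in KDAC6H611A against KDAC8H143A. It brought PPP2R2C with Tubastatin A (1.02) and ACOT2 with PCI-34051 (0.74) past the threshold, lost WNT5B in KDAC8H143A (-1.001) and turned ACOT9 with Tubastatin A to 0.034. WNT5B in KDAC8H143A was also lost by DESeq2 (-1.36), without the filter (-1.27) and with the replicate block (-1.32). Of the values that answer the comparisons, recomputed with every library kept, 207 kept their direction and call, 7 lost the call, 6 gained it, 8 changed sign and 6 counts or values moved. At an adjusted p of 0.05, PPP2R2C with Tubastatin A (0.67) and RTN4RL1 with PCI-34051 (-1.21) would pass.

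The GC and length correction turned RTN4RL1 and ACOT2 in KDAC8H143A to -0.63 and -0.59, PPP2R2C in KDAC6H611A against KDAC8H143A to 0.31, and list genes in KDAC8H143A to -0.0307 (PPP2R3B), -0.24 (STRN4), -0.0459 (PTK7) and -0.32 (LRP5). In KDAC6H611A against KDAC8H143A it turned STRN4 to 0.0093, CELSR1 to 0.093 and RXRA to 0.065. With the replicate block added to it the values were -0.60, -0.58, 0.71, -0.0615, -0.239, -0.0547, -0.33, 0.010, 0.099 and 0.069 in the same order, RTN4RL1 in the latter comparison missed the threshold with an adjusted p of 0.0201 by edgeR, and RTN4RL1 with PCI-34051 passed (-1.55).

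Correlations of same-numbered libraries ran from -0.172 to 0.307. They were not set beside those of differently numbered libraries, so whether replicate numbers pair the samples was not tested. The replicate block alone turned PPP2R2C in KDAC6H611A against KDAC8H143A to 0.29, brought RTN4RL1 with PCI-34051 past the threshold (-1.52), lost the calls of NGFR and HDAC6 in KDAC6H216A, and took the genes called in KDAC6H216A against WT from 121 to 66. That count was 351 at an adjusted p of 0.05, 293 by DESeq2, 443 with total counts, 215 in the fit of all groups and 63 with block and GC correction. In KDAC6H611A against WT it went from 1814 to 3383 at an adjusted p of 0.05 and 913 with total counts. In the fit of all groups, 4607 genes were called with Tubastatin A, 4341 with PCI-34051 and 7 between the inhibitors. The count between the inhibitors, 1041, became 2463 at an adjusted p of 0.05, 1884 without the filter and 604 with block and GC correction. Between KDAC6H611A and KDAC8H143A, 7519 became 4802 with block and GC correction. Within libraries under 1% mitochondrial rRNA, an alternative chosen after seeing the data with 1 KDAC6H611A library, taken to vary like the others, 1286 genes were called, PPP2R2C was at 0.078, ACOT2 at -1.68 missed the threshold and RTN4RL1 missed it with an adjusted p of 0.0903 by edgeR.

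Leaving out each library in turn gave lower bounds of 3.67 to 4.57-fold (WNT5B) and 8.02 to 10.7-fold (ACOT2) in KDAC6H216A and 2.74 to 3.56-fold (WNT5B) in KDAC6H611A against WT, and 2.70 to 3.58-fold (RTN4RL1) in KDAC6H611A against KDAC8H143A. ACOT2 in KDAC6H611A against WT ran from -1.84 to -1.55 and lost its call in 1 of 8 fits, and WNT5B in KDAC8H143A ran from -1.56 to -1.18 and lost it in 6 of 8. Uncalled values that crossed 0 or the threshold were ACOT2 in KDAC8H143A (-0.028 to 0.23), WNT5B with Tubastatin A (-0.0706 to 0.18), ACOT2 between the inhibitors (-0.24 to 0.0466), RTN4RL1 with PCI-34051 (-1.49 to -1.002), and PPP2R2C in KDAC6H611A against KDAC8H143A (-0.47 to 0.94, the latter called, without KDAC8H143A replicate 4). The call of NGFR in KDAC6H216A was lost in 7 of 8 fits, every one but that without KDAC6H216A replicate 1, and that of FZD3 without WT replicate 3. Genes called in KDAC6H216A against WT ran from 28 to 3813, the highest without KDAC6H216A replicate 1, in KDAC6H611A against WT from 1122 to 2908 and between the inhibitors from 407 to 1161. WT libraries held 3 to 33 counts of WNT5B, RTN4RL1 and ACOT2, and this depth limits how large a fall can be shown.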
